A study of Homo sapiens with 6 samples.

Results

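The collagen, laminin and integrin genes were taken from the gene table by their symbols, as every collagen chain (COL), laminin chain (LAMA, LAMB or LAMC), integrin alpha subunit (ITGA) and integrin beta subunit (ITGB1 to ITGB8) listed there. This gave 82 genes of 57820, with 44 collagens, 12 laminins and 26 integrins. The symbol ITGB3 stood on 2 rows, of which the larger was kept. The symbol alone decided which genes belong, and the total counts decided which of the repeated rows was kept.

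Collagens and laminins build the extracellular matrix. Fibrillar collagens form the fibres of connective tissue, collagen IV and the laminins form the sheets of basement membranes, and each laminin is a trimer of an alpha, a beta and a gamma chain. Integrins are pairs of an alpha and a beta subunit at the cell surface that bind these proteins on the outside and the actin skeleton on the inside. In melanoma, integrins and matrix genes are studied for their part in adhesion, migration and invasion.

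All libraries came from M14, an established human melanoma line, carrying a puromycin-selected and doxycycline-inducible shRNA against STAG2, a subunit of the cohesin ring. WT names cells grown without doxycycline and KD names cells grown with it for 5 days, with 3 libraries per condition. The study asked how loss of STAG2 changes the 3D genome and gene expression. No library came from cells with doxycycline and a non-targeting shRNA, so the drug and the knockdown cannot be told apart, and 1 shRNA in 1 line was used. The study describes its replicates as biologically independent samples, and the labels do not say how the cultures were separated.

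Levels are in CPM, the counts of a gene brought to a common library size after TMM scaling. The libraries held 24895998 to 35181733 expected counts each, and 3 counts, the limit that a count of 0 allows, came to between 0.087 and 0.112 CPM, for counting error only. STAG2 was at 66.5, 34.8 and 28.8 CPM in WT replicates 1 to 3 and at 16.0, 7.31 and 6.69 CPM in KD. The fall came to −2.12 on the log2 scale (SE 0.43, edgeR adjusted p = 0.0342). Here and below, p-values are from the edgeR quasi-likelihood fit of 15605 genes and are Benjamini-Hochberg adjusted over all of them. With WT replicate 2, WT replicate 3, KD replicate 2 or KD replicate 3 left out, the adjusted p of STAG2 from edgeR rose above 0.05, to at most 0.168, and its log2 fold change stayed between −2.63 and −1.68. Replicate 1 of both conditions stood apart from replicates 2 and 3. The 10 melanocyte lineage markers were all present and summed to 6802 CPM in WT replicate 1 against 2327 and 2234 CPM in the other WT libraries. In KD they summed to 2941 CPM in replicate 1 against 1718 and 1582 CPM. S100B was the 1 of them that fell without the block (log2 fold change −1.35, edgeR adjusted p = 0.00949), where 0.839% of all tested genes did. With the block 6 of the 10 fell, where 4.42% of all tested genes did. TYR was the 1 marker with a log2 fold change above 0 (0.35 without the block, edgeR adjusted p = 0.792). Because libraries with the same number deviated together, a fit with the replicate number as a block is given where it changes a call, and a fit without replicate 1 of either condition is set beside it. Whether replicates 2 and 3 were matched between the conditions cannot be told from these data.

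Among the markers of other cells that could add matrix genes, PTPRC and CD3E of leukocytes were at 0 in 5 and 6 of the 6 libraries, and PDGFRA and PDGFRB of fibroblasts were at most 0.80 and 0.20 CPM. Others in these lists were present. LAPTM5 and CORO1A of leukocytes reached 24.6 and 8.09 CPM. FAP and THY1 of fibroblasts reached 11.2 and 10.4 CPM, each in a WT library. The 6 fibroblast markers summed to between 15.5 and 18.2 CPM in WT and between 2.95 and 8.53 CPM in KD. FAP, 1 of the 3 of them that were tested, fell (log2 fold change −2.70, edgeR adjusted p = 0.0376). The 7 leukocyte markers summed to between 6.50 and 33.3 CPM in WT and between 5.19 and 22.7 CPM in KD. The 4 endothelial markers in the table reached 4.11 CPM in WT and 8.6 CPM in KD, and the 6 keratinocyte markers, almost all of it KRT10, reached 45.6 and 28.0 CPM. The part of these markers and of the melanocyte markers in the results below was not tested, and in bulk RNA fewer cells of a type and less RNA per cell cannot be told apart.

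Of the 82 genes, 61 passed edgeR's filter on low counts, with 27 collagens, all 12 laminins and 22 integrins. Without the block, 3 of the 61 (4.92%) passed an adjusted p under 0.05 in edgeR, against 2.59% of all tested genes. All 3 were integrin alpha subunits. ITGA5 and ITGAX rose, where 1.75% of all tested genes did, and ITGA9 fell, where 0.839% did. With the replicate block, 19 of 61 (31.1%) passed in edgeR, against 9.52% of all tested genes. Of these, 8 were higher in KD (13.1%, against 5.1% of all tested genes) and 11 were lower (18.0%, against 4.42%). Each of the 19 moved the same way in all 3 same-numbered pairs. The block fit compares KD with WT within these same pairs, so this is no separate support. Without replicate 1, 10 of 61 passed in edgeR, 4 higher and 6 lower, and all 10 were among the 19. The 9 that this fit lost were ITGA3, ITGA4, ITGAE, ITGAV, COL5A3, COL18A1, COL27A1, LAMB2 and LAMB3. The background in that fit was 4.73% of 15991 genes, with 2.88% higher and 1.85% lower. Over the 61 genes the log2 fold change had a median of −0.25, against −0.03 over all tested genes.

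**Figure D1:**
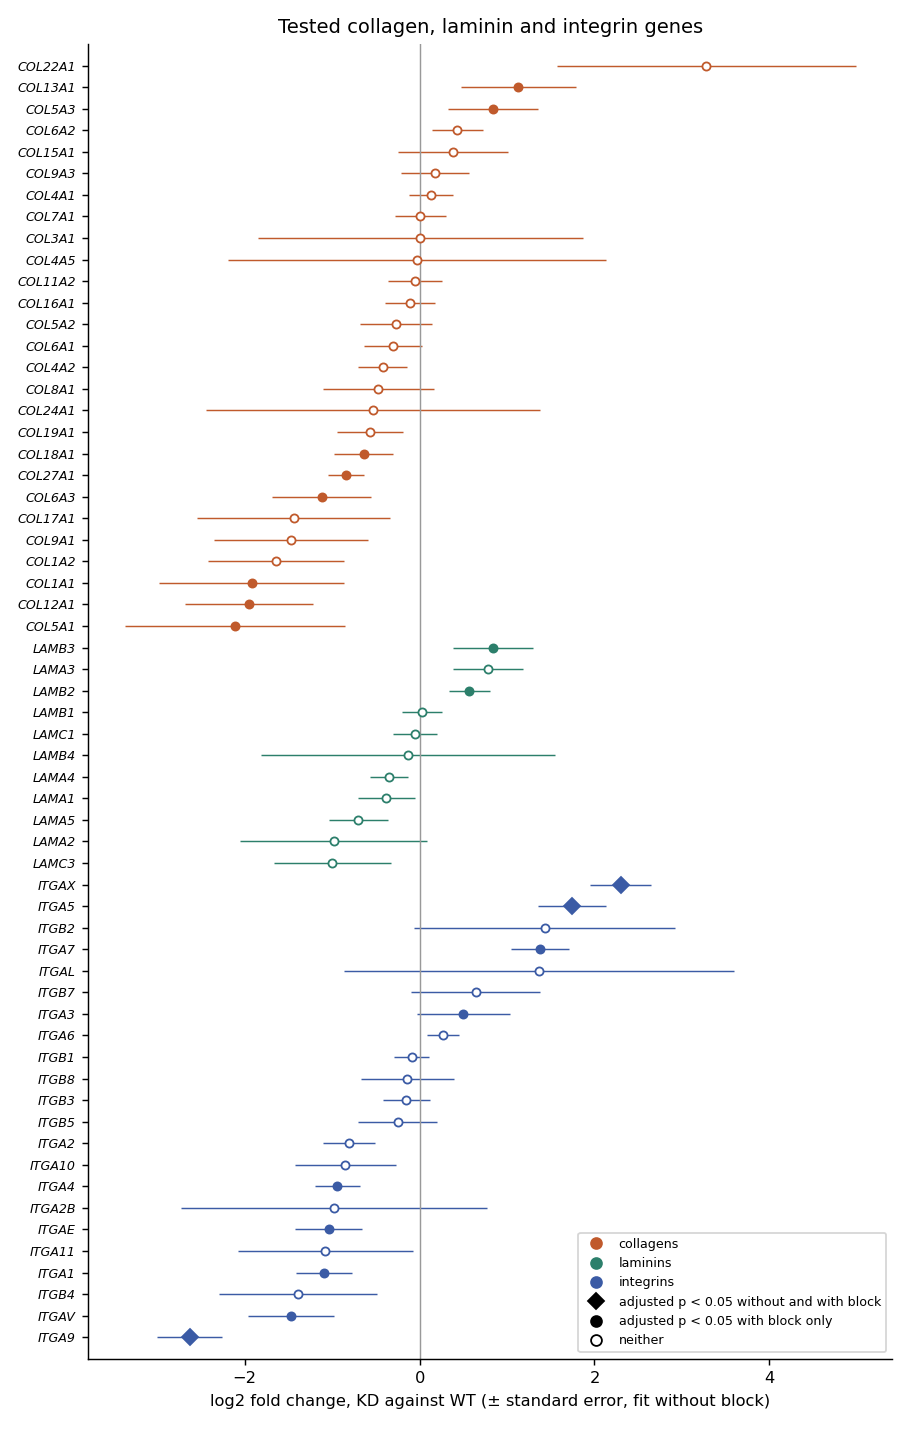
Log2 fold change of KD against WT, with its standard error, for 60 of the 61 tested genes, from the fit without the block. Diamonds mark the 3 genes that passed an adjusted p of 0.05 without and with the replicate block (ITGAX, ITGA5 and ITGA9), filled circles the 16 that passed with the block only, and open circles the 41 that passed neither.

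The integrins held the changes that passed without the block. In 11 of 22 tested integrins every KD library lay on the same side of every WT library, against 22.3% of all tested genes. KD lay above WT in 5 of them, where 11.8% of all genes did, and below WT in 6, where 10.5% did. Among the 27 tested collagens 2 had no overlap, and among the 12 laminins 0 did.

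ITGA5 encodes alpha5, which pairs with beta1 to form the classical fibronectin receptor. It lies on chromosome 12 of GRCh37 from 54789045 to 54813050, on the minus strand. Its level was 225, 683 and 539 CPM in WT and 1153, 1939.5 and 1741 CPM in KD. Every KD library lay above every WT library, and replicate 1 was the lowest of its condition in both. The log2 fold change was 1.74 (standard error 0.39, edgeR adjusted p = 0.0495), a rise of 3.34-fold. With the block it was 1.85 (edgeR adjusted p = 0.000154), and the rise ran from 2.84-fold to 5.13-fold over the pairs. Without replicate 1 it was 1.60 (edgeR adjusted p = 0.00308). The call without the block rested on all libraries but WT replicate 1, since leaving out any other one gave an edgeR adjusted p between 0.0607 and 0.197, with a log2 fold change between 1.58 and 2.08. Per kilobase of the canonical transcript, ITGA5 was at 52.8 to 160.8 CPM in WT and at 271 to 456 CPM in KD. In KD it exceeded every other integrin gene, ITGA3 being next at 64.9 to 197.9 CPM per kilobase, while in WT the ranges of ITGA5, ITGA3 and ITGB5 overlapped.

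ITGAX encodes alphaX (CD11c), a leukocyte subunit that pairs with beta2 and binds complement fragments and fibrinogen. It lies on chromosome 16 of GRCh37 from 31366455 to 31394320, on the plus strand. Its level was 2.39, 3.24 and 2.45 CPM in WT and 14.8, 13.8 and 11.4 CPM in KD. The libraries of the conditions were far apart, and replicate 1 did not stand out. The log2 fold change was 2.30 (standard error 0.35, edgeR adjusted p = 0.00832), a rise of 4.93-fold. Without replicate 1 it was 2.15 (edgeR adjusted p = 0.0177). The call was lost without KD replicate 2 (adjusted p = 0.0621) or WT replicate 3 (adjusted p = 0.0514). Its neighbours on the same strand stayed near 0, ITGAM 22.2 kb away with at most 0.67 CPM and ITGAD 10.3 kb away with at most 0.036 CPM. ITGB2, the beta2 subunit that alphaX requires as partner, was at 0.71, 0.38 and 0 CPM in WT and 0.87, 1.15 and 0.92 CPM in KD (log2 fold change 1.43, edgeR adjusted p = 0.764). ITGB2 is among the integrins counted above with KD above WT and no overlap, but it had at most 34 counts in any library. ITGAL, another beta2 partner, had at most 0.44 CPM in any library.

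ITGA9 encodes alpha9, which pairs with beta1 and binds tenascin-C, osteopontin and VCAM1. It lies on chromosome 3 of GRCh37 from 37493606 to 37864998, on the plus strand. Its level was 69.2, 92.6 and 64.3 CPM in WT and 5.91, 16.7 and 13.8 CPM in KD. All KD libraries lay below all WT libraries, with the largest difference in the replicate 1 pair. The log2 fold change was −2.63 (standard error 0.37, edgeR adjusted p = 0.00574), a fall of 6.19-fold. It passed in each of the fits run, with a log2 fold change between −2.93 and −2.29 when single libraries were left out and −2.35 (edgeR adjusted p = 0.00243) without replicate 1. Over the pairs the fall ran from 4.64-fold to 11.7-fold. ITGA9 had the lowest log2 fold change of the 61 tested genes. A lncRNA on the opposite strand of the gene, AC093415.2, averaged 51.5 counts in WT and 27.0 in KD, against 2271 and 379 for ITGA9.

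**Figure D2:**
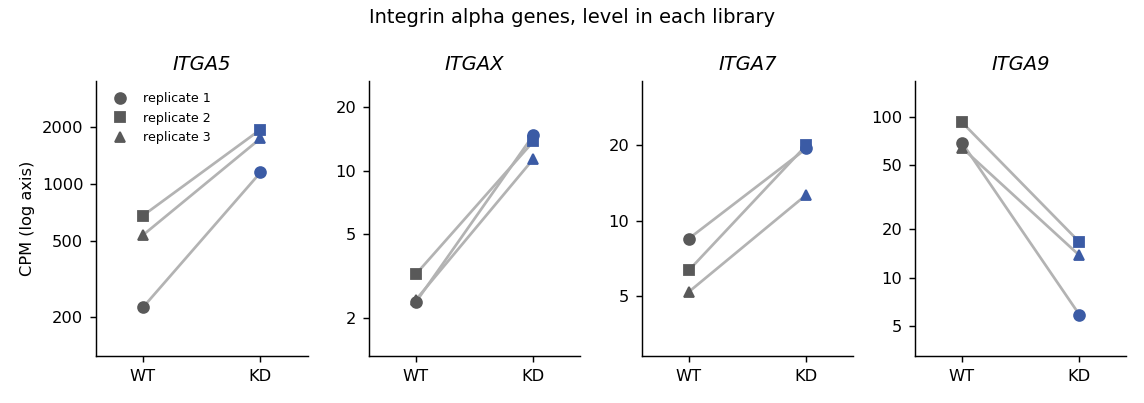
Level in CPM (log axis) of ITGA5, ITGAX, ITGA7 and ITGA9 in each WT (grey) and KD (blue) library, with lines joining libraries of the same replicate number. In all 4 genes the conditions do not overlap; ITGA9 goes from 64.3 to 92.6 CPM in WT down to 5.91 to 16.7 CPM in KD, and the others go up.

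The other alpha subunits are grouped here by what they bind. Of the laminin-binding subunits, ITGA7 was at 8.49, 6.35 and 5.21 CPM in WT and 19.4, 20.0 and 12.7 CPM in KD. Its libraries did not overlap, and its log2 fold change of 1.38 (standard error 0.33) had an edgeR adjusted p of 0.065 without the block and 0.00882 with it. ITGA7 is crossed on the opposite strand by BLOC1S1, METTL7B and RP11-644F5.10, which averaged 2393, 300.3 and 115 counts in WT against 197 for ITGA7, and the strand setting of the counting is not given in the sources used here. ITGA3 was at 149, 711 and 526 CPM in WT and 317, 968 and 678 CPM in KD. The conditions overlapped, and replicate 1 was the lowest library of each. ITGA3 rose with the block (log2 fold change 0.63, edgeR adjusted p = 0.041) and did not pass without it (0.50, adjusted p = 0.768) or without replicate 1 (0.42, adjusted p = 0.358). ITGA6, the third laminin-binding subunit, had 153 to 181 CPM in WT and 185 to 225 CPM in KD. These ranges did not overlap, but its log2 fold change of 0.27 did not pass in edgeR without the block (adjusted p = 0.584) or with it (adjusted p = 0.342).

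All 4 collagen-binding subunits had log2 fold changes below 0, from −1.09 to −0.81, and together summed to 69.3, 77.3 and 73.2 CPM in WT and 25, 47.3 and 40.9 CPM in KD. ITGA1 was at 21.1, 16.5 and 18.0 CPM in WT and 12.3, 7.18 and 6.55 CPM in KD, with no overlap. It fell with the block (log2 fold change −1.14, edgeR adjusted p = 0.0195; without it −1.09, adjusted p = 0.133). ITGA1 contains the gene PELO on the same strand, which averaged 1333 counts in WT and 1916 in KD, so reads from the shared stretch are uncertain. Some of the genes below overlap another gene on the opposite strand. They include ITGA4 (CERKL), COL18A1 (SLC19A1), LAMB1 (DLD) and COL9A3 (TCFL5), which had the higher mean count of the pair in WT. The overlapping gene had the higher mean count in WT for ITGAE (GSG2, 691 against 406) and LAMA5 (ADRM1, 13723 against 1388). The same held for ITGB4 (GALK1, 1957 against 128) and ITGB7 (ZNF740, 1785 against 52.7). ITGA2, the neighbour of ITGA1 30.1 kb away, was at 23.3, 14.3 and 21.2 CPM in WT and 10.3, 9.27 and 13.8 CPM in KD. Its libraries again did not overlap, and it had an edgeR adjusted p of 0.0643 with the block. ITGA10 and ITGA11 overlapped between conditions and did not pass in either fit.

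ITGAV encodes alphaV, the common partner of beta3, beta5, beta6 and beta8 in receptors for the RGD motif of vitronectin and fibronectin. It was at 83.4, 23.8 and 31.1 CPM in WT and 23.6, 17.0 and 9.43 CPM in KD. The lowest WT and the highest KD library nearly met, and WT replicate 1 was far above the rest. ITGAV fell with the block (log2 fold change −1.35, edgeR adjusted p = 0.0114) and not without it (−1.47, adjusted p = 0.178). The size rested on WT replicate 1, since leaving that library out gave −0.73 (edgeR adjusted p = 0.332), and leaving out replicate 1 of both conditions gave −1.05 (adjusted p = 0.12). ITGA4, which with ITGA9 forms a group of its own among the alpha subunits and binds VCAM1 and fibronectin, was at 21.8, 24.4 and 23.2 CPM in WT and 11.7, 14.6 and 9.85 CPM in KD. The replicates of ITGA4 were tight and did not overlap, and it fell with the block (log2 fold change −0.96, edgeR adjusted p = 0.0246; without it −0.94, adjusted p = 0.105; without replicate 1 −0.95, adjusted p = 0.0945). ITGAE, the partner of beta7 that binds E-cadherin, was at 9.91, 15.0 and 15.8 CPM in WT and 4.01, 8.90 and 6.92 CPM in KD, and likewise passed with the block (log2 fold change −1.08, edgeR adjusted p = 0.0381; without it −1.04, adjusted p = 0.221; without replicate 1 −0.96, adjusted p = 0.111).

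With the block, where 9.52% of all tested genes passed, 9 of the 15 tested alpha subunits did and 0 of the 7 tested beta subunits did, and the difference between alpha and beta was not tested. Without the block no beta subunit passed in edgeR either. ITGB1, the partner of most alpha subunits above, was at 263, 194 and 194 CPM in WT and 226, 202 and 185 CPM in KD. The log2 fold change of ITGB1 was −0.09 (standard error 0.20, edgeR adjusted p = 0.909). ITGB3 was at 181, 222 and 162 CPM in WT and 141, 246 and 124 CPM in KD (log2 fold change −0.15, edgeR adjusted p = 0.882). ITGB5 was at 226, 718 and 581 CPM in WT and 214, 622 and 449 CPM in KD (log2 fold change −0.25, edgeR adjusted p = 0.878). For these 3 genes the conditions overlapped widely, and their log2 fold changes crossed 0 when single libraries were left out. ITGB4, ITGB7 and ITGB8 were at most 9.28, 4.22 and 19.0 CPM in any library, and ITGB6 was at 0.14 CPM in 1 library and at 0 in the rest.

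ITGA5 is the called integrin for which RefSeq's promoter table has an entry, and its 250 bases before the start are shown because its transcript reached the highest integrin level per kilobase in KD. The window is chr12:54419267-54419516 of GRCh38.p14, on the minus strand, and capitals mark its GC box (GGGCGG on either strand), from 210 to 205 bases before the start.
ITGA5: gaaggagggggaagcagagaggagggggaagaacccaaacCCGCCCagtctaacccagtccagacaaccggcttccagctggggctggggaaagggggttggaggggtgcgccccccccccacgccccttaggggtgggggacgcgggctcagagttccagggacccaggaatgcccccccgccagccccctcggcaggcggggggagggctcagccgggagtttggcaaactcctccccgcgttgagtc
A GC box stood in 42.6% of all 35116 promoter windows and in 41 of the 77 windows of the 58 collagen, laminin and integrin genes in the table (53.2%). The window of ITGA5 held no complete AP-1 site (TGANTCA), interferon-stimulated response element, CCAAT box (CCAAT) or MITF M-box (CATGTG), each searched on both strands. These letters stood in 6.57%, 3.02%, 32.0% and 9.42% of all windows and in 3, 2, 17 and 5 of the 77. The ITGA5 window ends in TGAGTC, the opening letters of an AP-1 site, and the bases after it were not searched. Whether an AP-1 site crosses the start of ITGA5 therefore cannot be told from this window. ITGA3, ITGA7, ITGA9, ITGAX and COL1A1 had no entry.

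Laminins are assembled from the chains below, and none passed without the block. LAMC1, LAMB1 and LAMB2 were the most abundant, with means over the 6 libraries of 40.1, 51.9 and 47.3 CPM per kilobase. LAMC1, the gamma chain of most laminins, was at 309, 355 and 306 CPM in WT and 205, 378 and 354 CPM in KD. Its log2 fold change was −0.05 (standard error 0.25, edgeR adjusted p = 0.963), and that of LAMB1 was 0.03 (standard error 0.23, edgeR adjusted p = 0.979), 0.03 becoming −0.01 with upper-quartile normalization. LAMB1 had 246 to 314 CPM in WT and 222 to 364 CPM in KD. For both genes the range in KD enclosed that in WT.

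The beta2 chain LAMB2 was at 180.0, 268 and 203 CPM in WT and 256, 388 and 322 CPM in KD. It was higher in KD in each pair, by 1.42-fold to 1.58-fold, and the conditions overlapped at a single library of each. LAMB2 rose with the block (log2 fold change 0.57, edgeR adjusted p = 0.0271; without it 0.57, adjusted p = 0.288). LAMB3, the beta3 chain of laminin-332 in epithelial anchoring, was at 33.2, 111 and 80.5 CPM in WT and 74.7, 213 and 116 CPM in KD. Replicate 1 was the lowest of each condition, and the ratio of KD to WT within pairs was 2.25, 1.92 and 1.44. LAMB3 rose with the block (log2 fold change 0.88, edgeR adjusted p = 0.00954; without it 0.84, adjusted p = 0.455). Without replicate 1 neither passed in edgeR (adjusted p = 0.131 for LAMB2 and 0.193 for LAMB3).

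LAMA3, the alpha chain that joins LAMB3 in laminin-332, was at 3.73, 4.47 and 5.72 CPM in WT and 5.45, 8.02 and 10.4 CPM in KD, with an edgeR adjusted p of 0.428 without the block and 0.23 with it. Per kilobase, the mean over the 6 libraries was 26.1 CPM for LAMB3 and 0.591 CPM for LAMA3. Among the other alpha chains, LAMA1 (58.3 to 163 CPM in WT), LAMA4 (48.2 to 75.4 CPM) and LAMA5 (35.1 to 55.4 CPM) were the most abundant and had log2 fold changes of −0.38, −0.35 and −0.70. None of them passed in edgeR without the block (adjusted p from 0.389 to 0.707), and LAMA5 had an adjusted p of 0.0708 with it. LAMA2, LAMB4 and LAMC3 were at most 2.73, 1.31 and 4.04 CPM in any library.

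RefSeq lists 3 start sites for LAMB3, and the window of 1 of them is shown because LAMB3, LAMA3 and COL10A1 were the genes of the 58 with a complete AP-1 site in a window. The windows of the other LAMB3 starts held a GC box and none of the other letters searched. Which start these cells use was not tested. The window shown is chr1:209651375-209651624 of GRCh38.p14, on the minus strand. Capitals mark a CCAAT box read on the other strand (122 to 118 bases before the start), the AP-1 site (67 to 61) and a GC box (52 to 47).
LAMB3: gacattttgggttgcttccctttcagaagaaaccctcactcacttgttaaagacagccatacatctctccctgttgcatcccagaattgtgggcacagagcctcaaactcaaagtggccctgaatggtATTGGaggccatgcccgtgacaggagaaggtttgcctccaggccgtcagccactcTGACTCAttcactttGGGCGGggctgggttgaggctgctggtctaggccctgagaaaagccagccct

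No collagen passed without the block. With it, 8 of 27 tested collagens did (29.6%, against 9.52% of all tested genes). Of these, 2 were higher in KD (7.41%, near the 5.1% of all tested genes) and 6 were lower (22.2%, against 4.42%). Fibrillar collagens had 4 of these among 9 tested. COL1A1, the alpha1 chain of type I collagen, was at 2.66, 85.1 and 58.1 CPM in WT and 1.4, 19.4 and 17.7 CPM in KD. Replicate 1 was far below the other libraries in both conditions, and within pairs WT exceeded KD by 1.9-fold, 4.4-fold and 3.28-fold. COL1A1 fell with the block (log2 fold change −1.67, standard error 0.25, edgeR adjusted p = 0.00232) and without replicate 1 (−1.94, adjusted p = 0.00464), whereas the fit of all libraries without the block gave −1.92 (standard error 1.06, adjusted p = 0.462). COL1A2, the alpha2 chain, was low at 1.23, 5.28 and 4.11 CPM in WT and 1.00, 1.86 and 0.55 CPM in KD and did not pass (edgeR adjusted p = 0.38 without the block and 0.30 with it). COL1A1 lies 93.6 kb from ITGA3, tail to tail, and the log2 fold changes of these neighbours with the block were −1.67 and 0.63.

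COL5A1, a type V chain that starts the type I fibre, was at 1.19, 16.4 and 14.9 CPM in WT and 0, 4.84 and 2.69 CPM in KD. It fell with the block (log2 fold change −2.66, edgeR adjusted p = 0.022; without it −2.11, adjusted p = 0.51). COL5A2, another type V chain, was at 69.9, 202 and 164 CPM in WT and 68.2, 174 and 119 CPM in KD and passed in neither fit (log2 fold change −0.27, edgeR adjusted p = 0.851 without the block). COL5A3, the remaining chain, was at 4.99, 23.4 and 12.2 CPM in WT and 13.6, 34.4 and 24.6 CPM in KD. It rose with the block (log2 fold change 0.99, edgeR adjusted p = 0.0281; without it 0.84, adjusted p = 0.535; without replicate 1 0.73, adjusted p = 0.276). COL27A1 was at 50.5, 43.0 and 37.8 CPM in WT and 22.8, 25.1 and 25.7 CPM in KD, 1 of the 2 collagens whose libraries did not overlap. It fell with the block (log2 fold change −0.83, edgeR adjusted p = 0.0213; without it −0.84, adjusted p = 0.0767; without replicate 1 −0.66, adjusted p = 0.1).

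Outside the fibrillar group, COL12A1, which coats fibrils, was at 2.79, 14.2 and 17.9 CPM in WT and 0.96, 4.74 and 3.37 CPM in KD. The fall with the block was −1.85 on the log2 scale (edgeR adjusted p = 0.00961; without it −1.95, adjusted p = 0.235), and without replicate 1 it was −1.98 (adjusted p = 0.0179). COL6A3, a chain of the beaded filaments of collagen VI, was at 8.83, 39.4 and 31.0 CPM in WT and 4.89, 14 and 17.5 CPM in KD. It fell with the block (log2 fold change −1.06, edgeR adjusted p = 0.0183; without it −1.12, adjusted p = 0.416). Its partner chains COL6A1 (82.3 to 223 CPM over all libraries) and COL6A2 (23.2 to 54.5 CPM) had log2 fold changes of −0.30 and 0.43 and passed in neither fit. COL18A1, the precursor of endostatin, was at 55.0, 118 and 72.6 CPM in WT and 33.7, 72.7 and 51.9 CPM in KD. The pairs agreed closely, at 1.63-fold, 1.63-fold and 1.4-fold lower in KD, and it fell with the block (log2 fold change −0.63, edgeR adjusted p = 0.0302; without it −0.64, adjusted p = 0.444; without replicate 1 −0.61, adjusted p = 0.263).

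COL13A1, a transmembrane collagen of cell contacts, was at 4.69, 30.3 and 35.1 CPM in WT and 19.7, 62.9 and 71.3 CPM in KD. It was higher in KD by 4.20-fold, 2.08-fold and 2.03-fold in the pairs. COL13A1 rose with the block (log2 fold change 1.36, edgeR adjusted p = 0.00506) and without replicate 1 (1.04, adjusted p = 0.0211), and had an adjusted p of 0.49 in the fit of all libraries without the block. Per kilobase of transcript the highest collagen was COL9A3, a chain of cartilage collagen IX, with a mean of 52.7 CPM per kilobase over all libraries. It was at 65.6, 161 and 142 CPM in WT and 74.5, 194 and 151 CPM in KD (log2 fold change 0.18, edgeR adjusted p = 0.897), while its partner chains COL9A1 and COL9A2 were at most 5.85 and 0.25 CPM. COL22A1 had the largest fitted fold change of the collagens but few counts, at 0.52, 0 and 0 CPM in WT and 2.36, 1.69 and 1.04 CPM in KD (edgeR adjusted p = 0.433).

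**Figure D3:**
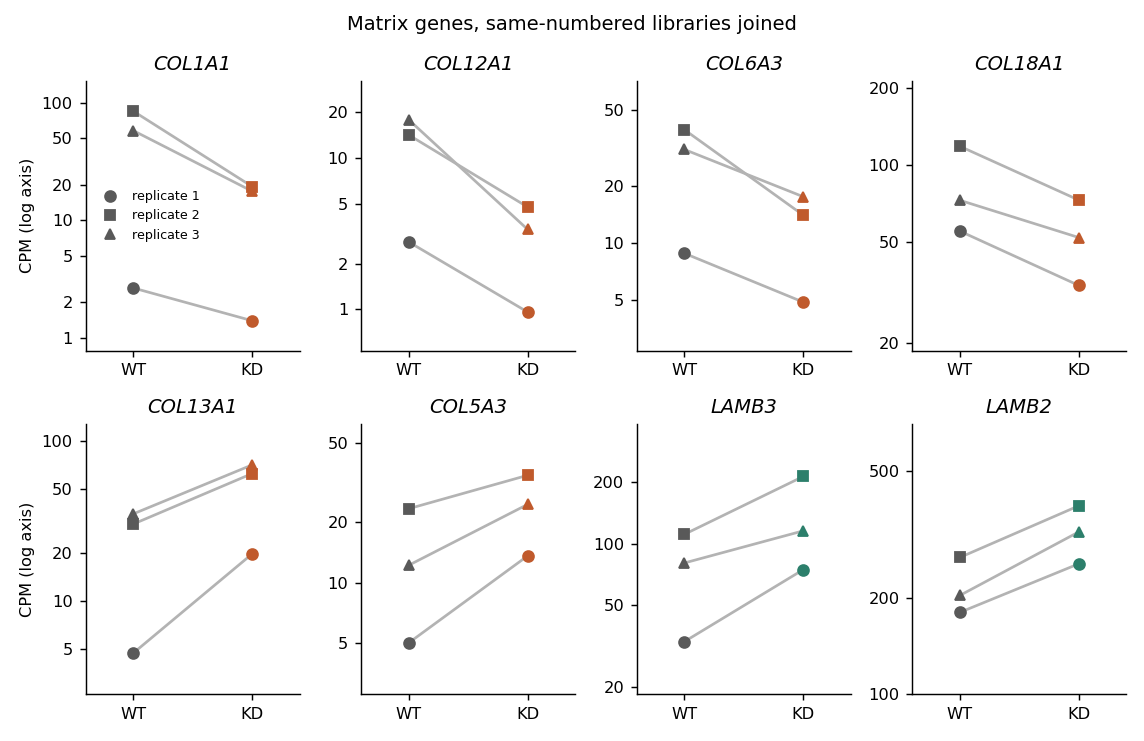
Level in CPM (log axis) of 6 collagens and 2 laminin beta chains in each library, WT in grey and KD in colour, with lines joining libraries of the same replicate number. Replicate 1 (circles) is the lowest library of its condition in every panel, and the lines run down in COL1A1, COL12A1, COL6A3 and COL18A1 and up in COL13A1, COL5A3, LAMB3 and LAMB2.

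Collagen IV is the network collagen of basement membranes, and its main chains COL4A1 and COL4A2 are transcribed away from each other from a shared promoter. COL4A1 was at 18.3, 25.5 and 20.2 CPM in WT and 28.4, 21.9 and 19.7 CPM in KD. COL4A2 was at 77.2, 145 and 90.3 CPM in WT and 63.2, 100.1 and 70.4 CPM in KD. Per kilobase, COL4A2 exceeded COL4A1 in each library, with 9.80 to 22.5 CPM against 2.79 to 4.34 CPM. Neither passed in edgeR (log2 fold changes 0.13 and −0.42, adjusted p = 0.888 and 0.574 without the block). The other collagen IV genes stand in the same head to head pairs and were all at most 1.22 CPM, COL4A3 beside COL4A4 and COL4A5 beside COL4A6.

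The windows of both genes are shown because they share the 126 bases between the RefSeq starts, chr13:110307158-110307283 of GRCh38.p14, which are in capitals. The window of COL4A1 is chr13:110307158-110307407 on the minus strand and that of COL4A2 is chr13:110307034-110307283 on the plus strand, so the capitals are the same bases read on opposite strands.
COL4A1: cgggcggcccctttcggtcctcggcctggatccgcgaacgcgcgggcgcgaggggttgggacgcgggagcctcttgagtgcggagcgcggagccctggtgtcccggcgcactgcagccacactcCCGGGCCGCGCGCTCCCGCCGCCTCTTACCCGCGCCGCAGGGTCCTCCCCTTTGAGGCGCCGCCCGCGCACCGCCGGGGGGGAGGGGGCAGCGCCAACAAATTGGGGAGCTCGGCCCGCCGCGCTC
COL4A2: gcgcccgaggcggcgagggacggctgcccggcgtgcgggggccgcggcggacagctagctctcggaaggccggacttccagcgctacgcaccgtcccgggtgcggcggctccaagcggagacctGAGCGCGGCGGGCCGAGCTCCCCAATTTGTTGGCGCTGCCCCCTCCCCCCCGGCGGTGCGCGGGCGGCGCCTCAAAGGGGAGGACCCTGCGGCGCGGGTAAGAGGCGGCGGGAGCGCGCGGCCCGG

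Replicate 1 set much of the spread of the collagens. In 11 of 27 tested collagens (40.7%) its level was more than 2-fold below the mean of replicates 2 and 3 in both conditions, against 2.15% of all tested genes. The same held for 3 of 22 integrins and 1 of 12 laminins. For these counts and those of the next sentence a small constant was added to both levels. The ratios of single genes are without it. Genes at low levels can thereby drop out of the counts, as ITGB4 did, whose plain ratio was 0.166 in WT and 0.445 in KD. In 2 collagens, COL24A1 and COL9A1, replicate 1 was more than 2-fold above the others in both conditions, where 2.6% of all tested genes were. COL9A1 was 2.58-fold above in WT and 2.79-fold in KD, and COL24A1, at no more than 44 counts, was 6.93-fold and 7.52-fold above. COL1A1 was 27.0-fold below the other replicates in WT and 13.2-fold below in KD, COL13A1 6.97-fold and 3.40-fold, and ITGA3 4.14-fold and 2.59-fold. All collagens together summed to 573 CPM in WT replicate 1 against 1263 and 925 CPM, and to 528 CPM in KD replicate 1 against 1005 and 816 CPM. ITGB8 and ITGAV were higher in replicate 1, by 2.62-fold and 3.04-fold in WT and by 2.72-fold and 1.78-fold in KD. The sum of the melanocyte lineage markers was higher in replicate 1 of both conditions, as given above. By the same count, 4 of the 10 were more than 2-fold above replicates 2 and 3 in both, where 2.6% of all tested genes were. SOX10 was below them in both conditions (ratio 0.891 in WT and 0.771 in KD), and S100A1 and ERBB3 were below them in KD only. Mitochondrial genes took 5.07% of the counts of WT replicate 1 against 2.12% to 2.94% in the other libraries. The part of these differences in the results was not tested.

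**Figure D4:**
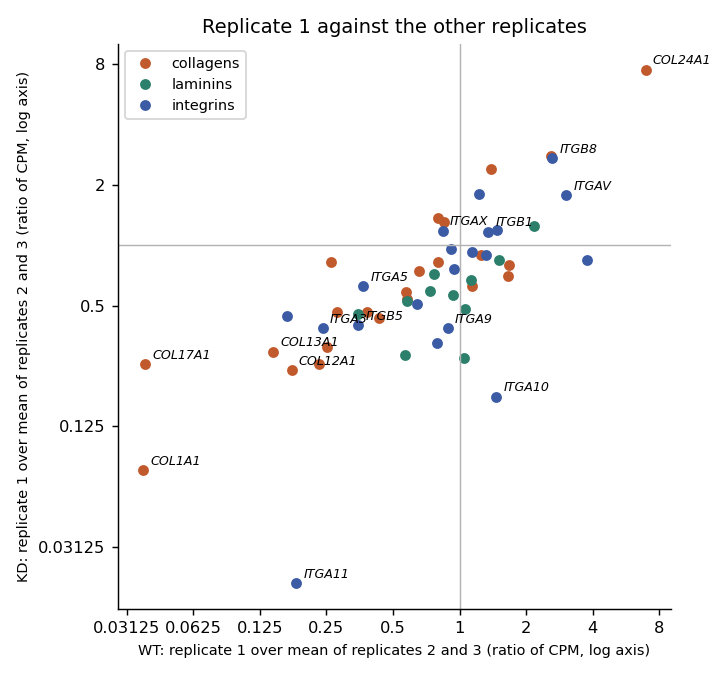
Ratio of the level in replicate 1 to the mean of replicates 2 and 3 (log axes), in WT on the horizontal axis and in KD on the vertical axis, for 54 tested genes with a value above 0 in both. Most collagens lie at the lower left, where replicate 1 is low in both conditions, as COL1A1 at 0.0371 in WT and 0.0755 in KD, while ITGB8 and ITGAV lie at the upper right.

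The 21 genes that did not pass the filter had a mean of at most 0.361 CPM and at most 63 counts in any library. They were COL2A1, COL4A3, COL4A4, COL4A6, COL6A5, COL6A6, COL8A2, COL9A2, COL10A1, COL11A1, COL14A1, COL20A1, COL21A1, COL23A1, COL25A1, COL26A1, COL28A1, ITGA8, ITGAD, ITGAM and ITGB6. COL6A5, COL11A1 and COL21A1 were at 0 in every library. A further 13 genes were tested although fewer than 3 libraries of a condition exceeded the filter's level of 0.326 CPM, among them COL3A1, COL22A1, COL24A1, LAMB4, ITGAL and ITGB2. COL5A1, which fell with the block, was another of them, with 0 counts in KD replicate 1. The tested genes not named so far, COL7A1, COL8A1, COL11A2, COL15A1, COL16A1, COL17A1, COL19A1 and ITGA2B, passed in neither fit.

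Genes that act with these families were followed in 5 lists, and those named here because they passed with the block were chosen after their values were seen. All tested genes passed at 2.59% without the block and 9.52% with it, as above. Of the proteins that act in integrin adhesion and signalling, 31 were tested and 1 passed without the block. PTK2B, the tyrosine kinase PYK2 that integrins activate, was at 3.61, 3.65 and 4.30 CPM in WT and 15.4, 8.76 and 11.7 CPM in KD. It rose by 1.63 on the log2 scale (standard error 0.36, edgeR adjusted p = 0.0462), and any single library left out raised the adjusted p above 0.05, to between 0.0632 and 0.198. Its relative PTK2, focal adhesion kinase, had a log2 fold change of −0.17 (edgeR adjusted p = 0.778). With the block 5 of 31 passed (16.1%), among them CD151, CD47 and ZYX, which rose, and the adhesion adaptor TNS3, which fell. TNS3 was at 172, 292 and 244 CPM in WT and 75.7, 129 and 129 CPM in KD (log2 fold change with the block −1.09, edgeR adjusted p = 0.00122; without it −1.08, adjusted p = 0.0813). The core adaptors TLN1, ILK, VCL, PXN and FLNA and the actin cross-linker ACTN4 passed in neither fit. FLNA, the most abundant gene of the list, averaged 4219 CPM in WT and 3445 CPM in KD (edgeR adjusted p = 0.774).

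Among other matrix and basement membrane proteins, 25 were tested and none passed without the block. With it 8 passed (32.0%), 5 higher and 3 lower. TNC, tenascin-C, a ligand of alpha9, was at 466, 1446 and 989 CPM in WT and 1258, 4237 and 2523 CPM in KD. It rose with the block (log2 fold change 1.44, edgeR adjusted p = 0.0001; without it 1.47, adjusted p = 0.173). AGRN, a basement membrane proteoglycan, was at 490.0, 774 and 554 CPM in WT and 919.8, 1995 and 1699.7 CPM in KD, with no overlap. It rose with the block (log2 fold change 1.3, edgeR adjusted p = 0.000802; without it 1.34, adjusted p = 0.0586). FN1, fibronectin, the ligand of alpha5 and beta1, was at 1486, 6613 and 4218 CPM in WT and 1328, 3566 and 2574 CPM in KD, and fell with the block (log2 fold change −0.59, edgeR adjusted p = 0.041; without it −0.72, adjusted p = 0.601). HSPG2, NID2 and SPARC were also higher and THBS1 and VCAN lower with the block.

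Of the enzymes that fold, modify and cross-link collagen and their chaperone, 23 were tested, none passed without the block and 4 with it (17.4%). P4HA1, a subunit of collagen prolyl hydroxylase, and the foldase FKBP10 were higher, at log2 fold changes of 0.75 (edgeR adjusted p = 0.0204) and 0.55 (adjusted p = 0.0279). The cross-linking oxidase LOXL2 and PCOLCE, which aids the trimming of procollagen, were lower, at −0.94 (edgeR adjusted p = 0.00842) and −1.04 (adjusted p = 0.0176). SERPINH1, the collagen chaperone HSP47, was at 488, 1189.9 and 1167 CPM in WT and 554, 1154 and 930.5 CPM in KD and did not pass (log2 fold change −0.11, edgeR adjusted p = 0.942). P4HB, PLOD3 and PPIB, the other abundant members, had log2 fold changes of 0.30, 0.29 and 0.20 and passed in neither fit. Of 17 tested matrix metalloproteinases and inhibitors, none passed without the block and 6 with it (35.3%). TIMP1 was at 189, 407 and 425 CPM in WT and 683, 918 and 862 CPM in KD, with a log2 fold change of 1.35 with the block (edgeR adjusted p = 0.00118; without it 1.27, adjusted p = 0.0682). Among the collagenases, MMP1, MMP13 and MMP14 were also higher with the block, at log2 fold changes of 0.93, 2.38 and 0.62, and TIMP2 and MMP16 were lower, at −0.69 and −1.68. MMP8, the remaining collagenase of the list, was at 35.6, 27.7 and 26.5 CPM in WT and 15.0, 13.8 and 25.3 CPM in KD, with no overlap, and did not pass (log2 fold change with the block −0.77, edgeR adjusted p = 0.0875). Of 14 tested receptors for collagen and laminin other than integrins, none passed without the block and 4 with it (28.6%), with DAG1, CD44 and RPSA lower and SDC4 higher.

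**Figure D5:**
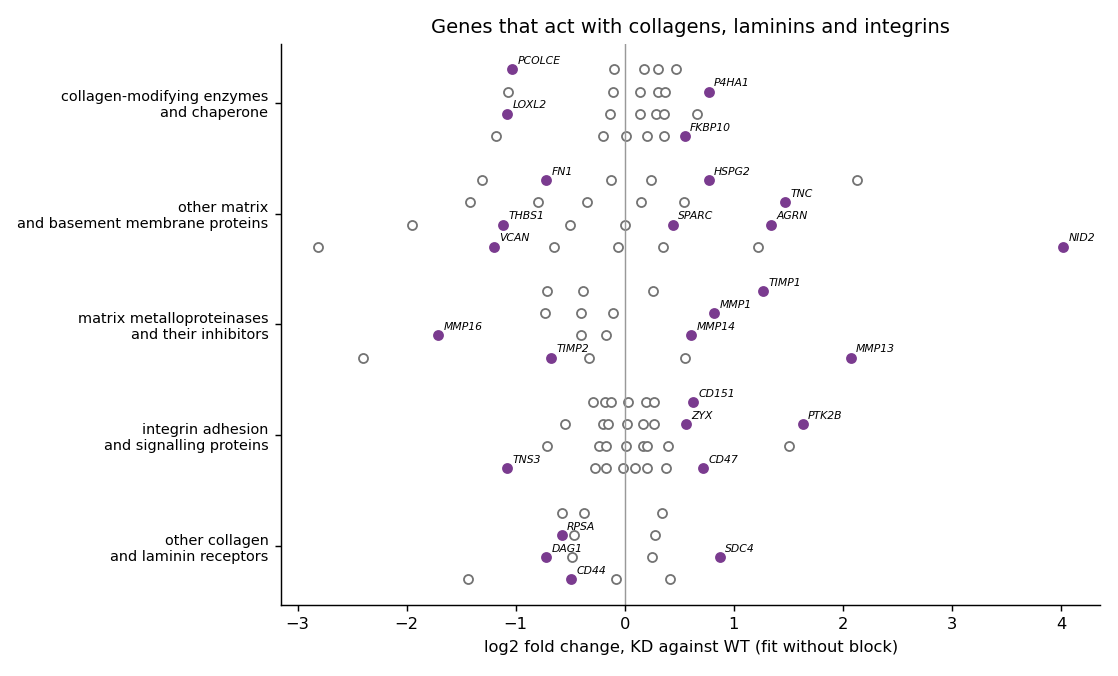
Log2 fold change of KD against WT from the fit without the block for the tested genes of the 5 lists, spread vertically for legibility. Filled points are the 27 genes that passed an adjusted p of 0.05 with the replicate block, from NID2 at 4.02 to MMP16 at −1.71; 1 of them, PTK2B, also passed without it.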

How the data were processed

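RNA-seq of 6 M14 libraries (3 WT, 3 KD) was analysed from 1 gene table. The authors deposited RSEM expected counts per gene, not normalized, and their processing notes name STAR, RSEM and hg19. Libraries were poly(A)-selected, directional and read as single 50-base reads, and the strand setting of the counting is not given in the sources used here.

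Expected counts were rounded to whole numbers, filtered with filterByExpr (15605 genes), TMM-scaled and tested with edgeR 4.0.16 (R 4.3.3) by the quasi-likelihood test of KD against WT, adjusted over all tested genes, with a threshold of 0.05. The test was checked on simulated data in which same-numbered libraries did not deviate together, so this check does not cover that feature of the libraries. CPM uses the TMM-scaled library size. Per kilobase values divide it by the canonical transcript length. With 3 against 3 libraries an exact permutation test cannot go below 0.1, so none is given. Totals of 24895998 to 35181733 counts set the counting error, without molecular identifiers.

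Same-numbered libraries deviated together from their group means (r = 0.573, 0.410 and 0.334 over 10568 genes with a mean of at least 5 CPM), which is where the pairing comes from. Differently numbered pairs of replicates 2 and 3 also had positive values (0.268 and 0.205), and those of replicate 1 with the others ran from −0.486 to −0.377. All same-numbered values being above 0.1, the replicate block is given where it changes a call. The values of 0.268 and 0.205 are above 0.1 too, so this limit cannot tell 3 matched pairs from replicate 1 standing apart. Alternatives were upper-quartile normalization, DESeq2 1.42.0, limma-voom (limma 3.58.1), other filters and thresholds, leaving out each library and, chosen after seeing the data, leaving out replicate 1 of both conditions.

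The genes named are those that passed without or with the block, the 6 of highest level and the 5 of largest absolute log2 fold change in each family, and, in each companion list, the 4 of highest level and those that passed without the block. Others are named where a result turns on them or to account for the remaining genes. Of the tested genes of the 3 families, 1 is counted but not reported here by name. The members and lists were chosen with earlier results of these data known. Promoters are RefSeq windows of GRCh38.p14, and gene positions are from GRCh37, the build of the counts.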

Additional observations from a re-analysis of the deposited data

How the results depend on the processing

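ITGA9 passed under every alternative run, and the replicate block lost none of the 404 calls. The number of collagen, laminin and integrin genes higher in KD (2) became 3 with DESeq2, 5 with no filter on low counts, 8 with the replicate block, 1 at an adjusted p under 0.01, 4 without replicate 1 of both conditions and 0 to 3 with single libraries left out. The number lower (1) became 4, 7, 11, 1, 6 and 1 to 1 in the same order. Of all tested genes (404 called), 979 were called with DESeq2, 1103 with no filter, 1486 with the replicate block, 137 at an adjusted p under 0.01, 757 without replicate 1 and 121 to 531 with single libraries left out. In the companion lists (1 called), 12 were called with DESeq2, 4 with at least 10 counts in every library, 2 with limma-voom, 14 with no filter, 27 with the replicate block, 0 with upper-quartile normalization, 0 at an adjusted p under 0.01, 8 without replicate 1 and 0 to 4 with single libraries left out. STAG2 ranged from −2.63 to −1.68 on the log2 scale. The causes were not tested.

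Log2 fold changes that crossed 0 were small or rested on few counts. With libraries left out they ranged from −0.12 to 0.26 for ACTN4, −0.64 to 0.04 for COL5A2, −0.52 to 0.11 for COL6A1, −0.13 to 0.50 for COL9A3, −1.96 to 0.40 for DCN, −0.17 to 0.07 for ITGB1, −0.51 to 0.03 for ITGB3, −0.62 to 0.09 for ITGB5, −2.82 to 0.19 for KDR, −0.67 to 0.09 for LAMA1, −0.15 to 0.26 for LAMB1, −0.21 to 0.18 for LAMC1, −0.00 to 0.37 for PPIB and −0.42 to 0.14 for SERPINH1. LAMB1 was at −0.01 with upper-quartile normalization. Over 93 named genes, 1035 values kept direction and call, 107 gained the call, 30 lost it and 27 changed sign.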
